A study of Mus musculus with 4 samples.

Results

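The subunits of the transcription factor NF-κB and its best known inhibitors were measured as mRNA in medullary thymic epithelial cells (mTECs). The set of 10 of the 23337 genes in the count table was chosen by symbol, as 5 subunits (*Rela*, *Rel*, *Nfkb1*, *Relb* and *Nfkb2*) and 5 inhibitors (*Nfkbia*, *Nfkbib*, *Nfkbie*, *Bcl3* and *Tnfaip3*). All 10 were found in the table and all 10 passed the filter on low counts. mTECs are epithelial cells of the thymic medulla that show self-antigens to developing T cells, and SIRT6 is a histone deacetylase. RNA-seq was run on mTECs sorted as CD45- EPCAM+ UEA-1+ Ly51- cells from C57BL/6 mice aged 4 weeks, with 2 libraries of wild-type mice (WT 1 and WT 2) and 2 libraries labelled *Sirt6*-/- (*Sirt6*-/- 1 and *Sirt6*-/- 2). The study made the mutants by crossing loxP-flanked *Sirt6* with *Foxn1*-Cre, which is active in thymic epithelium, so the deletion is meant for epithelial cells alone. The controls carried no *Foxn1*-Cre, so the transgene differed between the groups together with the deletion. The methods call the samples of each group independent, but the number of animals behind each is not given in the sources used here, and the spread between 2 libraries may be partly technical.

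NF-κB works as pairs of subunits. In the canonical pathway, pairs such as p65 (from *Rela*) or c-Rel (from *Rel*) with p50 (cut from the *Nfkb1* precursor) are held in the cytoplasm by IκB proteins until the IκB kinase marks these for destruction. In the non-canonical pathway, the kinase NIK (from *Map3k14*) triggers the cutting of the *Nfkb2* precursor to p52, which works with RelB. mTECs depend on the non-canonical pathway downstream of RANK, CD40 and the lymphotoxin-β receptor, and several NF-κB genes, such as *Nfkbia* and *Tnfaip3*, are themselves induced by NF-κB and feed back on it.

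Promoter sequence was examined because the genes of this system are known for regulating each other. RefSeq promoter windows of GRCm38.p6, which run from 250 bases before to 50 bases after a start, were held for 8 of the 10 genes, and none was held for *Relb* and *Nfkb1*. The windows were searched on both strands for the 10-base κB consensus. A match stood in 6 of the 8 genes, against 9.55% of 27025 genes and 8.46% of 32851 windows overall. Of the 50 other pathway genes with a window 26.0% held a match, and of 40 target genes 35.0%. A match describes letters and is no proof of binding, and no binding was measured here. The matches before a start follow with up to 4 flanking bases, in capitals for the match and written on the strand of the gene.
Nfkb2, first start, upper match: tcacGGGAATTCCCCccct
Nfkb2, first start, lower match: gaaaGGGGCTTTCCc
Nfkb2, second start: ggcaGGAATGTCCCcaca
Nfkb2, last start: tttcGGGACTTTCCtaag
Rel: cagcGGGAAATCCCCcccc
Tnfaip3, upper match: cgcgGGGACACCCCgggg
Tnfaip3, lower match: catcGGAAATCCCCct
Nfkbia: gcttGGAAATTCCCcgcg
Nfkbie: aacaGGGGGATTCCggag
The first *Nfkb2* entry lies at chr19:46304694-46304712 and holds 2 overlapping matches, from base -39 to base -29 before the first of the gene's 3 listed starts. The next lies at chr19:46304722-46304736, and both stand inside sequence that GENCODE M21 annotates as untranslated region, within the span of *Nfkb2*. The match before the second start lies at chr19:46305455-46305472, also inside the span that GENCODE M21 gives to *Nfkb2*. That before the last start lies at chr19:46305701-46305718, again inside an annotated untranslated region within that span. The run of *Rel* at chr11:23771047-23771065 on the minus strand again holds 2 overlapping matches. The entries of *Tnfaip3* lie at chr10:19015522-19015539 and chr10:19015411-19015426 on the minus strand, inside the span that GENCODE M21 gives to the gene. That of *Nfkbia* lies at chr12:55492663-55492680 on the minus strand, and that of *Nfkbie* at chr17:45555590-45555607 on the plus strand. The match of *Bcl3* starts at base 3 after its start, and the windows of *Rela* and *Nfkbib* held none.

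The longer upstream stretches of 3 genes with a match and of *Rela*, a gene without one, are shown for contrast, again with matches in capitals. They are limited to bases that no annotated untranslated region covers. Upstream refers to the RefSeq start, and the *Tnfaip3* stretch lies inside the span that GENCODE M21 gives to the gene.
Nfkbia (chr12:55492648-55492897, minus strand): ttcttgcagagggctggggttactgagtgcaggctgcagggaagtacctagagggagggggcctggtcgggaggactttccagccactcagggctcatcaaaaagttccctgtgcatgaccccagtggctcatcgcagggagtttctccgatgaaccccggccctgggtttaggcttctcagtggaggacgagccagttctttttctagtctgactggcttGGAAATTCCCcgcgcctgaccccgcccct
Rel (chr11:23770971-23771219, minus strand): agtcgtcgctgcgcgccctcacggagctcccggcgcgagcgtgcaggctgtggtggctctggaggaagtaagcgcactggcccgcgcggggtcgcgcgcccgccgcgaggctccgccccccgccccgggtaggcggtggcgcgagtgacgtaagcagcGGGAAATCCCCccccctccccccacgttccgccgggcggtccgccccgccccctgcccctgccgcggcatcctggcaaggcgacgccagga
Tnfaip3 (chr10:19015411-19015547, minus strand): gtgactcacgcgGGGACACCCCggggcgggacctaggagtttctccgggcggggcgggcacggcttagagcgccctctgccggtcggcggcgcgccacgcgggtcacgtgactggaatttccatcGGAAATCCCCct
Rela (chr19:5637291-5637482, plus strand): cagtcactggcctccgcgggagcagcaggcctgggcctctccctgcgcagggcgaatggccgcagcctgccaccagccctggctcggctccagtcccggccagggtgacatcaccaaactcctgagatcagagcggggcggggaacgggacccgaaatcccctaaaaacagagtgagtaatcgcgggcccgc

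In GENCODE M21 on GRCm38 the 10 genes lie on 7 chromosomes. *Rela* (chr19:5637483-5648130) and *Nfkb2* (chr19:46304320-46312385) are on the plus strand of chromosome 19. *Relb* (chr7:19606217-19629438), *Bcl3* (chr7:19808462-19822770) and *Nfkbib* (chr7:28758251-28767512) are on the minus strand of chromosome 7. The others are *Rel* (chr11:23736847-23770970), *Nfkb1* (chr3:135584655-135691547), *Nfkbia* (chr12:55489410-55492647), *Nfkbie* (chr17:45555703-45563169) and *Tnfaip3* (chr10:19000910-19015657). Whether counting used the strand is not given in the sources used here, and exons of 3 genes overlap exons of other genes on the opposite strand, so reads there cannot be assigned. *Nfkb2* shares 531 exon bases with *AC114539.1* and 299 with *Psd*, *Nfkbib* shares 314 with *Ccer2* and 42 with *Sirt2*, and *Bcl3* shares 161 with *Gm16175*.

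The libraries held between 61102704 and 65907745 counts, and 18547 genes were tested with edgeR's quasi-likelihood test. A gene was called higher or lower at an unadjusted p under 0.05, with the direction given for libraries labelled *Sirt6*-/- against WT. At that level 977 genes (5.27%) were called higher and 615 (3.32%) lower, and after Benjamini-Hochberg adjustment 1 gene (0.00539%) stayed under 0.05. DESeq2 called 357 of 18961 genes (1.88%) at its adjusted p. Of the calls at the unadjusted p 61.4% were higher, against 48.4% with upper quartile normalization, 46.2% with library size alone and 51.0% or 51.2% with limma on TPM. The targeted gene itself was not lower: WT held 622 and 755 counts of *Sirt6*, and the libraries labelled *Sirt6*-/- held 882 and 835 (log2 fold change 0.37, SE 0.32, adjusted p = 0.800 by edgeR). The deleted exons are not given in the sources used here, so a count over the whole gene cannot settle the genotype. The study reports that *Sirt6* was inactivated, checked by quantitative PCR in sorted mTECs and by western blot of cultured thymic epithelial cells. The medullary list (15 genes) summed to between 54728 and 63638 TPM in each library with none at 0 throughout, of which the MHC class II genes *H2-Aa*, *H2-Ab1* and *Cd74*, shared with macrophages, dendritic cells and B cells, made up 82.4% to 87.0%. The other 12 genes, *Epcam* and *Aire* among them, summed to between 7909 and 11007 TPM. Macrophage and dendritic cell genes were also present (14 genes, 10029 and 6328 TPM in WT, 4077 and 4316 in *Sirt6*-/-) in spite of the CD45- gate.

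Of the 10 NF-κB genes, *Relb*, *Rel*, *Nfkb2* and *Tnfaip3* were called higher and none lower. That is 4 of 10, beside 5.27% of all genes called higher and 3.32% called lower. None passed the adjusted p, in edgeR or in DESeq2, where *Relb* came nearest (adjusted p = 0.0795 by DESeq2, the lowest of its 12 alternatives, which reached 0.999). For the 10 genes the median log2 fold change was 0.25, beside -0.0047 over all genes tested. In CPM (each count over its TMM-scaled library total, set to 1000000) the groups did not overlap for 7 of the 10, with 6 higher and 1 lower. Over all genes 21.6% were higher without overlap and 20.3% lower. Means are given in CPM with the SD of 2 libraries, and adjusted p-values come from edgeR's quasi-likelihood test with Benjamini-Hochberg adjustment. At 2 against 2, p = 0.333 is the smallest value that an exact permutation test (two-sided) of 1 gene allows.

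**Figure D1:**
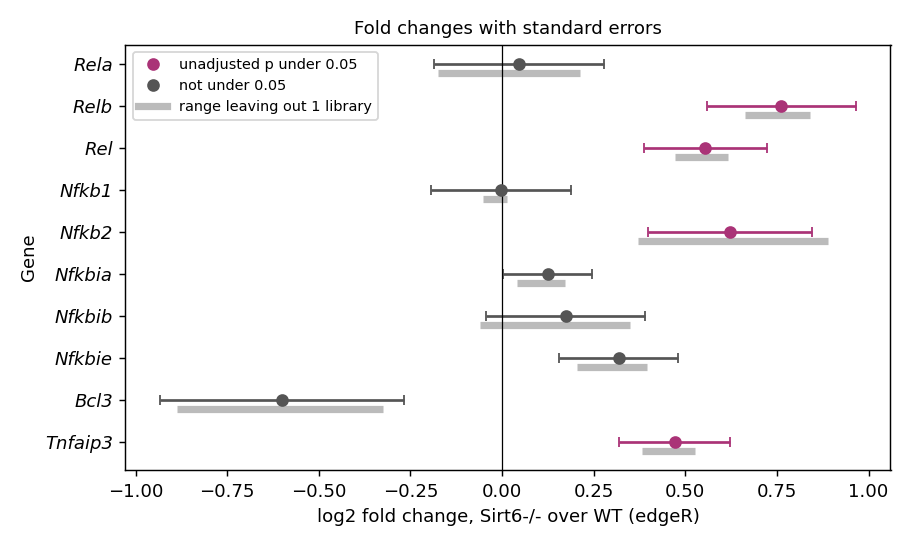
The x axis gives the log2 fold change of each of the 10 genes (y axis) in libraries labelled Sirt6-/- over WT from edgeR; points are estimates, whiskers 1 SE, and grey bars the range over the 4 fits that leave out 1 library. Relb, Rel, Nfkb2 and Tnfaip3 (purple) lie above 0 in every fit, as do Nfkbia and Nfkbie, which were not called. Bcl3 lies below 0, and the bars of Rela, Nfkb1 and Nfkbib cross 0. Rela also changes sign under upper quartile scaling and library size alone.

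*Rela* encodes p65, the main transactivating subunit of the canonical pathway. Its counts were 4611 (WT 1), 5232 (WT 2), 4172 (*Sirt6*-/- 1) and 5676 (*Sirt6*-/- 2), so the *Sirt6*-/- libraries lay on both sides of the WT ones. The mean was 76.3 ± 8.32 CPM in WT and 78.8 ± 13.7 in *Sirt6*-/-, and the log2 fold change of 0.05 (SE 0.23, adjusted p = 0.975 by edgeR) became -0.03 under upper quartile scaling and -0.04 under library size alone. *Nfkb1*, which encodes the p105 precursor of p50, was nearly level, with 5676 and 5317 counts in WT, against 5071 and 5513 in *Sirt6*-/-. Its means were 85.1 ± 2.24 and 85.0 ± 1.37 CPM (log2 fold change -0.0025, SE 0.19, adjusted p = 0.999 by edgeR). In TPM its highest library was 1.03-fold its lowest, the narrowest range of the 10 genes.

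*Rel*, which encodes c-Rel, differed from the other canonical subunits in having no overlap between the groups. It had 8737 and 9237 counts in WT, against 12531 and 12928 in *Sirt6*-/-. Both *Sirt6*-/- libraries stood above both WT libraries, by more than the spread within either group. Its mean went from 139 ± 8.25 to 205 ± 4.29 CPM, a 1.47-fold difference (log2 fold change 0.55, SE 0.17, adjusted p = 0.541 by edgeR's quasi-likelihood test). The call was kept in 9 of 12 alternative fits and lost without WT 1 (log2 fold change 0.47), without *Sirt6*-/- 1 (0.53) and without *Sirt6*-/- 2 (0.54).

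*Relb* encodes RelB, the subunit that works with p52 in the non-canonical pathway, and it had the largest fold change of the 10 genes. It had 3361 counts in WT 1 and 3635 in WT 2, against 5430 in *Sirt6*-/- 1 and 6026 in *Sirt6*-/- 2. The groups stood well apart, with each *Sirt6*-/- library above each WT library. The mean went from 54.2 ± 4.08 to 92.0 ± 2.82 CPM, a 1.70-fold difference (log2 fold change 0.76, SE 0.20, adjusted p = 0.541 by edgeR's quasi-likelihood test). The call was kept in 10 of 12 alternative fits and lost without WT 1 (log2 fold change 0.66) and without *Sirt6*-/- 2 (0.70), and over the alternatives the log2 fold change ran from 0.66 to 0.84.

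*Nfkb2*, which encodes the p100 precursor of p52, was also higher, but less evenly. It had 10576 counts in WT 1 and 14493 in WT 2, against 19282 in *Sirt6*-/- 1 and 17935 in *Sirt6*-/- 2. The groups did not overlap, and the WT libraries were farther from each other than the *Sirt6*-/- ones. The mean went from 195 ± 46.8 to 299.5 ± 28.2 CPM, a 1.54-fold difference (log2 fold change 0.62, SE 0.22, adjusted p = 0.550 by edgeR's quasi-likelihood test). The call was kept in 6 of 12 alternative fits. Among the others were the fits without WT 1 (log2 fold change 0.37), without *Sirt6*-/- 1 (0.52), without *Sirt6*-/- 2 (0.68), under upper quartile scaling (0.54) and under library size alone (0.53). Part of its exon sequence is shared with the opposite-strand genes named above.

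*Nfkbia* encodes IκBα, the classical inhibitor that NF-κB induces against itself, and it was by far the most abundant of the set. It had 180144 and 175722 counts in WT, against 175152 and 199269 in *Sirt6*-/-. After scaling the *Sirt6*-/- libraries lay just above WT, at 2757 ± 6.49 against 3004 ± 145 CPM, a 1.09-fold difference that was not called (log2 fold change 0.12, SE 0.12, adjusted p = 0.832 by edgeR). *Nfkbie* (IκBε) had 25982 and 22193 counts in WT, against 26510 and 31470 in *Sirt6*-/-. Its CPM values did not overlap, at 373 ± 34.1 and 465 ± 36.4, but the difference did not pass the test (log2 fold change 0.32, SE 0.16, adjusted p = 0.648 by edgeR). *Nfkbib* (IκBβ) had 5811 and 5912 counts in WT, against 5383 and 7420 in *Sirt6*-/-, and the WT libraries lay between the *Sirt6*-/- ones. Its log2 fold change was 0.17 (SE 0.22, adjusted p = 0.881 by edgeR), and -0.06 without *Sirt6*-/- 2.

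*Bcl3* encodes an atypical, nuclear IκB that joins p50 and p52 pairs on DNA, and it was the one gene of the 10 whose *Sirt6*-/- libraries both lay below WT. It had 2545 counts in WT 1 and 1699 in WT 2, against 1094 in *Sirt6*-/- 1 and 1613 in *Sirt6*-/- 2. WT 2 and *Sirt6*-/- 2 stood close to each other, and the means of 32.8 ± 8.61 and 21.6 ± 4.97 CPM did not differ past the test (log2 fold change -0.60, SE 0.33, adjusted p = 0.679 by edgeR). Leaving out 1 library moved the value between -0.89 and -0.33.

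*Tnfaip3* encodes A20, a ubiquitin-editing enzyme that shuts off signaling above the IκB kinase. It had 20476 counts in WT 1 and 19060 in WT 2, against 24623 in *Sirt6*-/- 1 and 28265 in *Sirt6*-/- 2. The WT libraries were nearly equal in CPM and both *Sirt6*-/- libraries lay above them. The mean went from 306 ± 9.41 to 424 ± 23.1 CPM, a 1.39-fold difference (log2 fold change 0.47, SE 0.15, adjusted p = 0.541 by edgeR's quasi-likelihood test). The call was kept in 7 of 12 alternative fits. It was lost under upper quartile scaling (log2 fold change 0.39) and with any library left out, at 0.48 without WT 1, 0.44 without WT 2, 0.53 without *Sirt6*-/- 1 and 0.38 without *Sirt6*-/- 2.

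**Figure D2:**
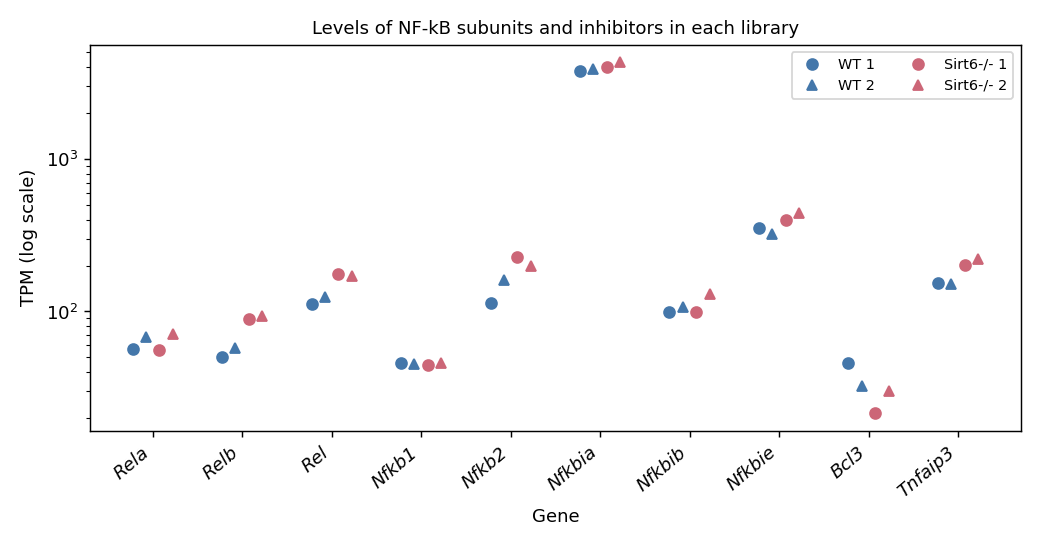
The y axis gives TPM on a log scale for the 10 genes (x axis) in each of the 4 libraries, with WT in blue and libraries labelled Sirt6-/- in red. Nfkbia lies far above the rest at 3779 to 4314 TPM, the Relb points of the groups are separate, and the 4 points of Nfkb1 lie between 44.4 and 45.8 TPM.

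Levels can be compared between genes in TPM (StringTie's measure, which divides by transcript length). In WT *Nfkbia* stood at 3840 ± 86.1 TPM, the 13th most abundant of all genes, followed by *Nfkbie* at 338 ± 24.2 and *Tnfaip3* at 153 ± 1.96. *Nfkb2* (137 ± 34.3 TPM) was the most abundant subunit, ahead of *Rel* (119 ± 9.41), *Rela* (62.0 ± 8.01), *Relb* (54.3 ± 5.16) and *Nfkb1* (45.5 ± 0.282). *Nfkbib* stood at 103 ± 5.36 TPM and *Bcl3*, the lowest, at 39.2 ± 9.55. The ranges of *Tnfaip3* and *Nfkb2*, of *Nfkb2* and *Rel*, of *Rela* and *Relb* and of *Nfkb1* and *Bcl3* overlapped in WT, so these neighbours in the order were not separated. In *Sirt6*-/- *Relb* (91.4 ± 3.23 TPM) lay above *Rela* (63.6 ± 11.3) without overlap, and *Nfkb2* (213 ± 18.8) and *Tnfaip3* (211 ± 12.1) overlapped. *Bcl3* was again the lowest, at 25.8 ± 6.03 TPM.

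The canonical and non-canonical subunits were set against each other within each library, where scaling between libraries drops out. These ratios are given as descriptions, without a test. *Relb* stood at 0.898 and 0.855 times *Rela* in WT and at 1.60 and 1.31 times in *Sirt6*-/-, so the ratio was higher in both *Sirt6*-/- libraries. As the ranges of these subunits overlapped in WT, no order between them is drawn there. *Nfkb2* over its canonical counterpart *Nfkb1* was 2.47 and 3.57 in WT and 5.09 and 4.36 in *Sirt6*-/-. *Rel* over *Rela* went the same way, with 1.99 and 1.85 against 3.15 and 2.39, so the shift against *Rela* was not limited to the non-canonical subunit. *Nfkb2* over *Relb*, by contrast, overlapped, at 2.23 and 2.79 in WT and 2.54 and 2.13 in *Sirt6*-/-, and so did *Nfkb1* over *Rela*, at 0.810 and 0.669 against 0.800 and 0.639.

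**Figure D3:**
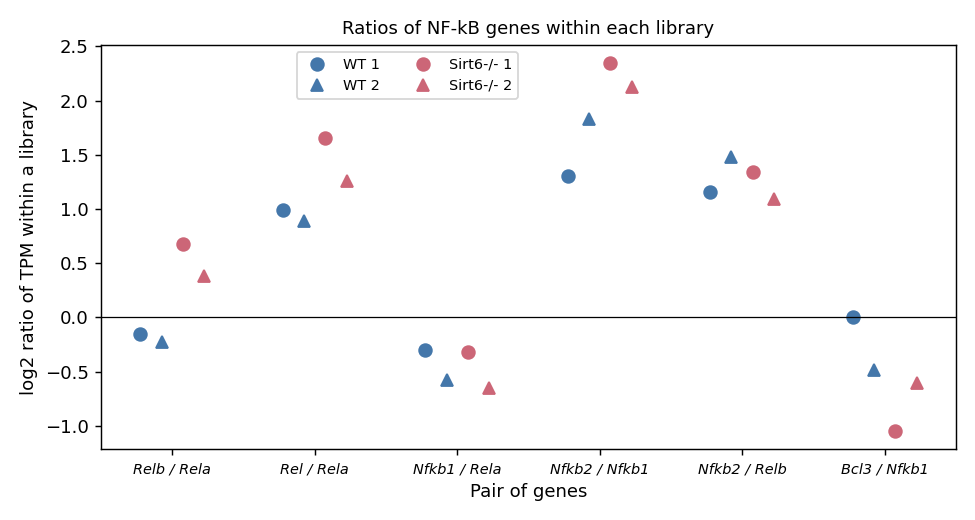
The y axis gives the log2 ratio of TPM of 2 genes within a library for 6 pairs (x axis), with WT in blue and libraries labelled Sirt6-/- in red. Relb over Rela lies below 0 in both WT libraries and above 0 in both others, while Nfkb1 over Rela and Nfkb2 over Relb overlap between the groups.

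The 5 subunits together summed to 377 and 458 TPM in WT and to 590 and 582 TPM in *Sirt6*-/-. *Relb* and *Nfkb2* made up 43.3% and 47.9% of that sum in WT and 53.4% and 50.4% in *Sirt6*-/-. The shares of *Relb* (13.4% and 12.7% against 15.1% and 16.1%) and of *Nfkb1* (12.1% and 9.89% against 7.53% and 7.87%) did not overlap between the groups, nor did those of *Rela* (14.9% and 14.8% against 9.42% and 12.3%), and those of *Nfkb2* and *Rel* did. Among the subunits with a transactivation domain, *Rela*, *Rel* and *Relb*, the share of *Relb* was 23.1% in both WT libraries, and 27.9% and 27.8% in *Sirt6*-/-.

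**Figure D4:**
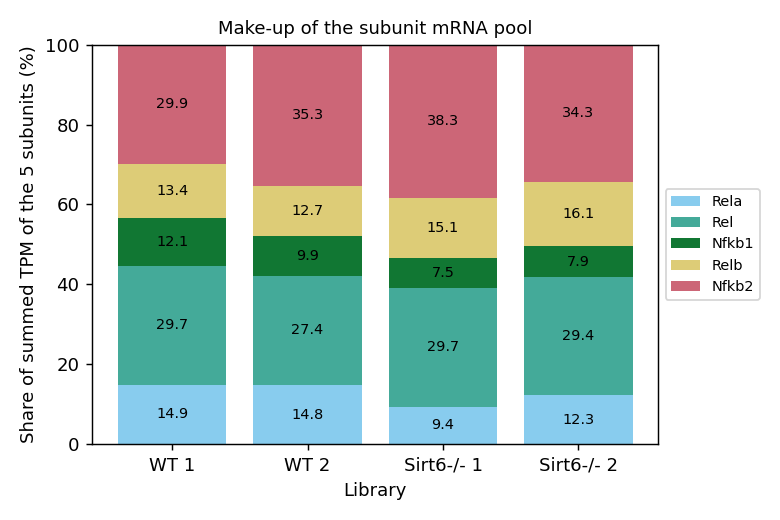
Stacked bars give each subunit's share (y axis, percent) of the summed TPM of the 5 subunits in each library (x axis). The upper segments, Nfkb2 and Relb, add up to 43.3% and 47.9% in WT and 53.4% and 50.4% in libraries labelled Sirt6-/-, and those of Rela and Nfkb1 are smaller in the latter.

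The classical inhibitors *Nfkbia*, *Nfkbib* and *Nfkbie* summed to 4234 and 4329 TPM in WT and 4499 and 4889 TPM in *Sirt6*-/-. *Nfkbia* alone held between 88.2% and 90.1% of that sum in each library. Inhibitor mRNA per subunit mRNA was lower in *Sirt6*-/-, at 7.62 and 8.41, than in WT, at 11.2 and 9.46. *Tnfaip3* per *Nfkbia* was 0.0409 and 0.0389 in WT and 0.0507 and 0.0510 in *Sirt6*-/-, so the 2 feedback inhibitors did not keep a fixed proportion. *Bcl3* per *Nfkb1* was 1.01 and 0.717 in WT and 0.484 and 0.656 in *Sirt6*-/-. TPM is an mRNA measure, and neither the proteins nor the cutting of p105 and p100 was measured here.

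Some cell type genes also differed between the groups. *Epcam*, the epithelial surface protein of the sort, had 49643 and 49078 counts in WT, against 60549 and 72374 in *Sirt6*-/-. It was called higher (log2 fold change 0.48, SE 0.14), and its value was 0.36 without *Sirt6*-/- 2. The summed medullary genes without class II, *Epcam* among them, overlapped between the groups. They stood at 7975 and 11007 TPM in WT and at 7909 and 9621 in *Sirt6*-/-. In bulk RNA a change in the number of cells of a type and a change in RNA per cell cannot be told apart, so 8 of the NF-κB genes were also set against *Epcam* in each library, a comparison chosen after the values were seen. *Relb* per *Epcam* was 0.0634 and 0.0694 in WT and 0.0840 and 0.0780 in *Sirt6*-/- and still did not overlap. *Rel* (0.140 and 0.150 against 0.165 and 0.142), *Nfkb2* (0.141 and 0.193 against 0.213 and 0.166) and *Tnfaip3* (0.194 and 0.182 against 0.191 and 0.183) then overlapped. *Rela*, *Nfkb1*, *Nfkbia* and *Nfkbie* per *Epcam* were lower in *Sirt6*-/- without overlap, with *Nfkb1* at 0.0572 and 0.0542 against 0.0419 and 0.0381. Per *Epcam*, *Rela*, *Nfkbia* and *Nfkbie* thus lay on the other side of WT than in the fit on all genes. The mean difference of *Relb*, *Rel* and *Nfkb2* kept its sign. That of *Tnfaip3*, called higher in that fit at a log2 fold change of 0.47, did not, with a log2 difference of -0.0032 per *Epcam*.

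Beside 5.27% of all genes called higher and 3.32% lower, 4 of 15 medullary genes were called higher and 1 lower, and 5 of 9 tuft cell genes were called lower (summed level 423 and 428 TPM in WT, 265 and 211 in *Sirt6*-/-). Of the macrophage and dendritic cell list 3 of 14 were called lower and none higher. Of 15 thymocyte genes 1 was called lower (1577 and 1219 TPM in WT, 1277 and 856 in *Sirt6*-/-), as was 1 of 7 B cell genes (276 and 224 against 226 and 173). Of 8 cortical genes 2 were called higher and none lower (2113 and 2244 TPM against 2175 and 1868), and none of 9 fibroblast and endothelial genes was called (601 and 677 TPM against 532 and 642). No marker of these lists was at 0 in all 4 libraries. Their part in the values of the NF-κB genes was not tested.

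The rest of the pathway was described with 67 genes in 5 lists. Of these 11 were called higher, 3 lower and 53 neither, with a median log2 fold change of 0.24. These are 16.4% higher and 4.48% lower, beside 5.27% and 3.32% of all genes, so the share called lower is near that of all genes. None of the 67 passed edgeR's adjusted p. By DESeq2's adjusted p *Nfkbiz* (0.0151), *Tnip1* (0.0304) and *Ltb* (0.0160) were under 0.05. The number called higher was 5 without WT 1 and 6 without *Sirt6*-/- 1, and the number called lower was 1 without either of these or without *Sirt6*-/- 2. Of the called genes *Nfkbiz*, *Tnip1* and *Ltb* were called whichever single library was left out, and the others were not. Among 9 receptors 2 were called higher and none lower. *Ltbr*, the lymphotoxin-β receptor, had 1215 and 1533 counts in WT, against 3491 and 2390 in *Sirt6*-/- (log2 fold change 1.16, SE 0.33, and 0.81 without *Sirt6*-/- 1). The study instead reports slightly decreased *Ltbr* expression in *Sirt6*-deficient mTECs. It lists quantitative PCR primers for *Ltbr*, so its measure may not be the counts used here. *Tnfrsf11b*, which encodes osteoprotegerin, a decoy that binds RANK ligand, had 52379 and 54232 against 59598 and 84931 counts (0.48, SE 0.19, and 0.22 without *Sirt6*-/- 2). *Cd40* (0.48, SE 0.19) and *Tnfrsf11a*, which encodes RANK (0.32, SE 0.29), were not called.

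Of 14 kinases 1 was called higher (7.14%, near the 5.27% of all genes) and none lower, namely *Irak4* of the interleukin 1 and Toll-like receptor route, at a log2 fold change of 0.88 (SE 0.30). *Map3k14*, which encodes NIK, had 3661 and 3525 counts in WT, against 6360 and 4255 in *Sirt6*-/-, without overlap and without a call (0.63, SE 0.28). The IκB kinase genes were not called, with *Ikbkb* at -0.11 and *Ikbkg* at 0.08. *Chuk* (IKKα) ran from 2094 to 7127 counts within groups, with the number 1 and 2 libraries of each group far apart (0.11, SE 0.71). Of 16 adaptors and ligases 2 were called higher, *Birc2* (cIAP1, 0.57, SE 0.16) and *Malt1* (a paracaspase, 0.81, SE 0.31, and 0.45 without WT 1). The parts of the complex that degrades NIK were otherwise not called, with *Birc3* at 0.36 (SE 0.15), *Traf2* at 0.12 (SE 0.16) and *Traf3* at -0.46 (SE 0.23).

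The other inhibitors and deubiquitinases held 5 of 19 called higher (26.3%, beside 5.27% of all genes) and 1 lower. *Nfkbiz*, an atypical IκB like *Bcl3*, had 10619 and 12058 counts in WT, against 18490 and 21584 in *Sirt6*-/- (log2 fold change 0.87, SE 0.17). *Tnip1*, a partner of A20, had 28807 and 23485 counts against 42658 and 42991 (0.77, SE 0.16). *Nfkbid*, another atypical IκB, was higher by 0.61 (SE 0.18), so 2 atypical IκB genes were called higher while *Bcl3* lay below WT. *Spata2* (0.91, SE 0.29) was called higher and *Commd1* (-0.65, SE 0.22) lower. *Itch*, a ubiquitin ligase, was called higher with 5519 and 5786 counts against 13109 and 7292 (0.92, SE 0.34), but its value was 0.38 without *Sirt6*-/- 1. *Cyld*, a deubiquitinase that counters the pathway, was not called (0.40, SE 0.26). Of 9 ligands 1 was called higher, *Tnf* (0.93, SE 0.37), which was 0.52 without *Sirt6*-/- 1 and 0.58 without WT 2. The ligands called lower were 2, *Ltb* (-1.08, SE 0.25) and *Cd40lg* (-1.09, SE 0.38), both known from lymphocytes, and 6 were not called. The median of the ligands was -0.57.

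Of 55 genes known as NF-κB targets 13 were called higher and 4 lower, beside 5.27% and 3.32% of all genes, with a median log2 fold change of 0.21. The 6 with the smallest p-values were *Ptges* (prostaglandin E synthase, 1.15, SE 0.19), *Cflar* (an inhibitor of caspase 8, 0.93, SE 0.18), *Ccl21a* (a chemokine of immature mTECs, -2.37, SE 0.46), *Cd80* (a costimulatory ligand, 0.94, SE 0.20), *Irf4* (0.99, SE 0.22) and *Stat5a* (0.67, SE 0.16). The other 3 targets called lower, named after their values were seen, were *Cxcl5* (-0.89), *Saa3* (-0.75) and *Ccl19* (-0.70). *Cd80* and *Ccl21a* are also markers of mTEC stages, so their values are counted in both lists. None of the 55 targets passed edgeR's adjusted p. By DESeq2's adjusted p *Cflar* (0.00836), *Cd80* (0.0108) and *Irf4* (0.0183) were among those under 0.05. With upper quartile normalization or library size alone the targets called higher were 7, and without *Sirt6*-/- 1 only 1 was called lower.

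**Figure D5:**
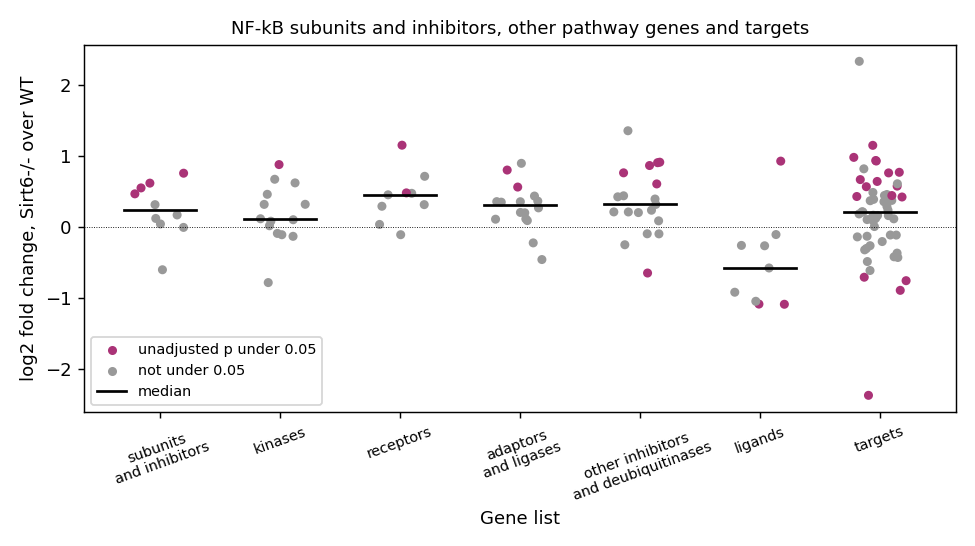
The y axis gives the log2 fold change of single genes in libraries labelled Sirt6-/- over WT for the 10 subunits and inhibitors, the 5 other pathway lists and the target list (x axis), with purple for an unadjusted p under 0.05 and a bar at each list's median. The medians run from -0.57 for ligands to 0.46 for receptors, and called genes occur in both directions among targets, ligands and other inhibitors.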

How the data were processed

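RNA-seq of 4 libraries was used, 2 per group as the labels assign them. The authors trimmed reads, aligned them to mm10 with HISAT2 (2.1.0, per the submitters' processing notes) and quantified genes with StringTie (1.3.3). The deposited values are raw counts, in whole numbers, of 23337 genes and StringTie's TPM values per library, from which 1 unnamed total line per library was left out. The gene annotation is not given in the sources used here. Counts were normalized by TMM (factors 0.966 to 1.04) and tested with edgeR 4.0.16 (R 4.3.3, filterByExpr with a minimum count of 10 and minimum total of 15, glmQLFit and glmQLFTest, two-sided) on all genes, with Benjamini-Hochberg adjustment over all 18547 tested. The biological coefficient of variation was 0.557. The fits were first run on simulated data with known fold changes, each larger in size than those of the called NF-κB subunits and inhibitors. That run does not speak to changes as small as theirs.

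The 10 genes and all lists were chosen with earlier results of these data known, so their counts carry no independent support. The text names all 10 genes, *Sirt6*, up to 6 genes per pathway and target list with the smallest p under 0.05, and 15 key genes of the pathway whatever their values. *Adgre1*, *Fcmr* and *Otulin* were matched by older symbols. Alternatives were DESeq2 1.42.0, upper quartile normalization, library size alone, no filter, the study's filter (TPM over 0.1 in all libraries), the replicate number as a block, limma 3.58.1 on log2(TPM + 1) and log2(TPM + 0.1), and the omission of each library, where the lone library is assumed to vary like the other group. Fold changes on log2(TPM + pseudocount) understate those of low genes. Positions came from GENCODE M21 on GRCm38, promoter sequence from RefSeq on GRCm38.p6. Figures were drawn with matplotlib 3.10.9.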

Additional observations from a re-analysis of the deposited data

How the results depend on the processing

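Of 120 refits of the 10 genes, 97 kept direction and side of the threshold, 16 lost a call and 7 turned direction, all among *Rela*, *Nfkb1* and *Nfkbib*. *Rela* became -0.031 under upper quartile scaling and -0.043 under library size alone, and with 1 library left out ran from -0.18 to 0.21, *Nfkb1* from -0.052 to 0.014 and *Nfkbib* from -0.059 to 0.35. The 4 called genes stayed above 0 in all 12 alternatives, while with 1 library left out the number called ran from 0 (without WT 1, and without *Sirt6*-/- 2) over 1 (without *Sirt6*-/- 1) to 3. It was 2 under upper quartile scaling. Under library size alone 7 other pathway genes were called higher, and 7 targets there and under upper quartile scaling. Genes under the adjusted p numbered 357 with DESeq2, 2 with the TPM filter, 7 with limma on log2(TPM + 1), 2 on log2(TPM + 0.1), and 0 with any library left out. With 1 library left out, genes called higher ran from 394 to 1152 and lower from 332 to 828, other pathway genes higher from 5 to 9 and lower from 1 to 3, and targets lower from 1 to 5, with all these lowest values reached without *Sirt6*-/- 1 except that for pathway genes higher, reached without WT 1. The cause of these moves was not tested, and fits with 1 library left out also hold fewer libraries.

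The replicate numbers are only shared numbers, with a correlation of -0.05 between the deviations of same-numbered libraries. With the number as a replicate block 3 of the 10 genes were called (*Nfkb2* not, at a log2 fold change of 0.64), 1 other pathway gene was called lower, and 0 genes passed the adjusted p. Depth was ample for all 10 genes, at 1094 counts or more in each library, and the number of libraries limits precision.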
